A study of Rattus norvegicus with 36 samples.

Results

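The imprinted Dlk1-Dio3 cluster is a stretch of rat chromosome 6 that holds a large group of miRNA genes between the protein-coding genes Dlk1 and Dio3. Its miRNAs were followed here in lung and whole blood of rats after X-irradiation of the thorax. Members were chosen by name: every row of known rat mature miRNAs, either arm, whose name carried 1 of 45 listed stems. The rule found 67 rows of 43 stems, out of 458 known rat miRNAs and 947 rows of all kinds in the count table. The stems miR-299b and miR-665 had no row. The rule itself used names and no measured values, although the members were chosen with earlier results of these data known.

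The rats were females of the inbred strain WAG/RijCmcr, aged 9 to 10 weeks at exposure. The exposed rats received 15 Gy at once, as X-rays over the whole thorax, a field that took in lung, heart and some liver, and tissue was taken 1, 2, 3 or 4 weeks later. Age-matched rats kept alike without exposure (0 Gy) were taken at 1 and 4 weeks only. Lung came from the right superior lobe and blood from cardiac puncture. Each of the 6 conditions had 3 small RNA libraries per tissue, 36 in all, and each library pooled RNA of 3 rats, so the spread between libraries is that of pools and not of single animals. The 0 Gy group at 1 week was the control for weeks 1 and 2, and the 0 Gy group at 4 weeks for weeks 3 and 4, so that neighbouring weeks shared their controls.

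Background on the locus helps to read the values. Dlk1, Rtl1 and Dio3 are expressed from the paternal chromosome, while the noncoding RNAs Meg3, Rian and Mirg and the miRNAs carried in them come from the maternal chromosome, and these miRNAs are best known from embryo, placenta and brain. They fall into a group that lies antisense to the retrotransposon-derived gene Rtl1, with miR-127, miR-434 and miR-136, and a larger group further towards Dio3 that runs from miR-379 to miR-410 within Mirg. miR-127 is fully complementary to Rtl1 mRNA and directs its cleavage, and miR-134 is known for limiting dendritic spine size in neurons.

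The 7 most counted cluster miRNAs are shown because the results turn on them. Sequences are mature RNAs from RefSeq, build GRCr8, read 5′ to 3′, with the seed (bases 2 to 8, which pair with targets) in capitals.
miR-127-3p: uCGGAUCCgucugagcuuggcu
miR-541-5p: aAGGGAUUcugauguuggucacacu
miR-411-5p: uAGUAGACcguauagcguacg
miR-434-3p: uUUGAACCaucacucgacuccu
miR-136-3p: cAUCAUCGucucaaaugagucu
miR-409b: aGGGGUUCaccgagcaacauucg
miR-134-5p: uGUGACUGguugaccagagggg

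All 7 lay on chromosome 6 in that build. miR-127-3p was at chr6:134328510-134328531, miR-434-3p at chr6:134330451-134330472 and miR-136-3p at chr6:134331383-134331404, all on the plus strand. Further along, miR-411-5p was at chr6:134544604-134544624, miR-134-5p at chr6:134570320-134570341 and miR-541-5p at chr6:134578434-134578458, also on the plus strand. miR-409b was at chr6:134579229-134579251 on the minus strand, opposite to the others. Each of the 7 had a seed of its own that no other known rat miRNA of the count table with a RefSeq sequence shared. RefSeq held the mature sequence of 65 of the 67 members, without miR-127-5p and miR-136-5p. Those 65 carried 64 different seeds, and miR-381-3p and miR-539-3p were the only pair with a seed in common.

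A few facts of the whole series bear on these values. Lung libraries held 8132 to 3807051 counts and blood libraries 1156407 to 2340177. The 2 shallowest lung libraries, 15 Gy 3 weeks replicate 3 with 8132 counts and 0 Gy 1 week replicate 3 with 11621 counts, lay far below the next, which had 239592. Lung levels are given as CPM, the counts divided by the library total after TMM scaling and brought to a common scale of 1000000 counts. That factor was 0.463 in 0 Gy 4 weeks replicate 3, which raised all its CPM values. miR-486-5p, a red cell miRNA, made up 89.8% of all blood counts and 2.03% of all lung counts. The epithelial list summed to between 7404 and 29156 CPM in the lung libraries.

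The cluster was a minor part of the lung miRNA pool, and miR-127-3p dominated it. The members together held 15914 counts, or 0.167% of the counts of known rat miRNAs in lung. Of these, miR-127-3p had 13955, which is 87.7%. It ranked 59 among all known rat miRNAs in lung, while the next member, miR-541-5p, had 436 counts and ranked 166. miR-411-5p had 425 counts, miR-434-3p 270 and miR-136-3p 158. The remaining 62 members shared 670 counts, or 4.21% of the cluster.

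Counts were uneven along the locus. The group antisense to Rtl1 held 17 of the members and 91.2% of the cluster counts, although its count without miR-127 was 554. The 45 members of the miR-379/miR-410 group had 1375 counts, or 8.64%, mostly from miR-541-5p and miR-411-5p, which lie towards opposite ends of it. The 3 members near Rian, miR-341 and the arms of miR-370, had 21 counts, and the 2 arms of miR-770 at the Meg3 end had 4. The order given here is that of read counts, which do not give numbers of molecules.

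**Figure D1:**
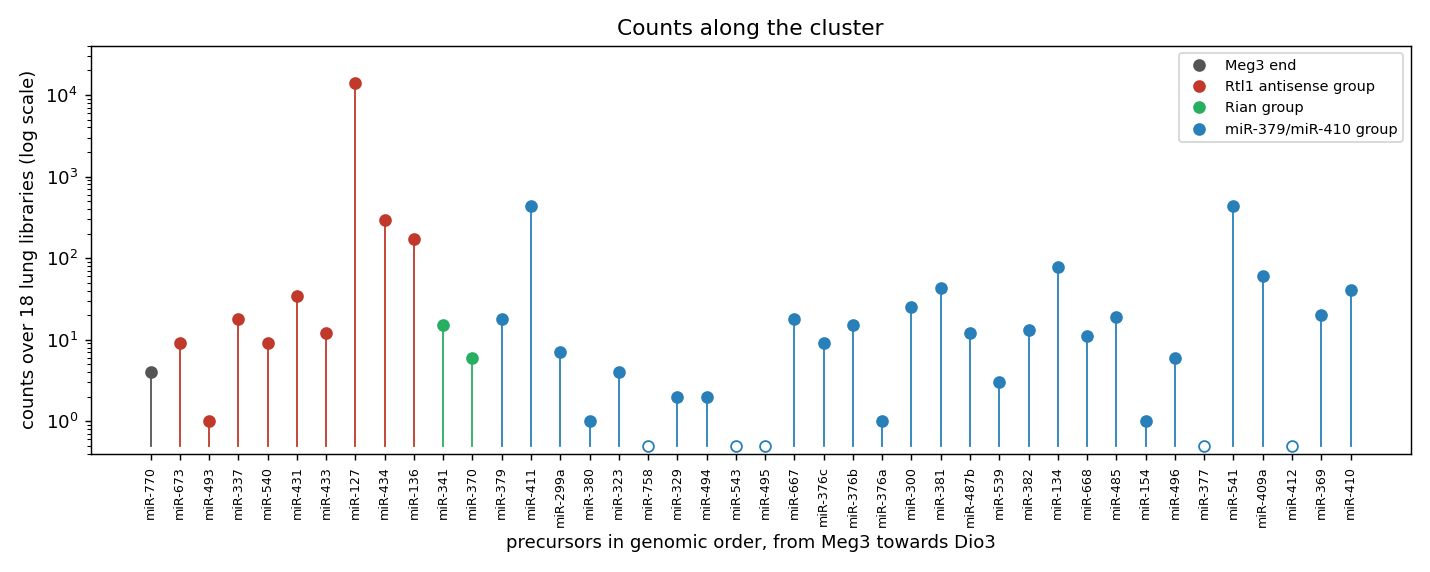
Counts summed over the 18 lung libraries (y axis, log scale) for each precursor with its arms added, in genomic order from Meg3 towards Dio3 (x axis). Shown are the 42 stems with a row whose gene was found by name in RefSeq on chromosome 6. miR-409b, with 97 counts, was not found by that name search and is not shown, although its mature sequence lies on chromosome 6. Colours mark the groups within the locus and open circles on the floor mark precursors with 0 counts. miR-127 stands above every other precursor, with 13960 counts, and the next are miR-541 and miR-411.

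Among the 62 remaining members, 20 had at least 10 counts over the 18 lung libraries. miR-409b had 97 counts and miR-134-5p 77. miR-381-3p had 43, miR-410-3p 41, miR-409a-5p 40 and miR-431 34. miR-434-5p had 27, miR-300-3p 25, miR-409a-3p 20, and both miR-337-5p and miR-667-3p 18. The other 9 lay between 11 and 16 counts: miR-369-5p and miR-136-5p with 16, miR-341 with 15, miR-485-3p with 14, miR-376b-5p with 13, miR-487b-3p with 12, and miR-433-3p, miR-379-5p and miR-668 with 11. A further 30 members had 1 to 9 counts and 12 had none. Of the members 82.1% had a count somewhere in lung, against 94.4% of the 391 other known rat miRNAs in the table. The deepest library, 0 Gy 4 weeks replicate 1, showed 39 members, the median lung library 21, and the 2 shallowest libraries 2 and 1, so that absence from a library mostly could not be told from low depth.

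The balance of the arms differed between precursors. Of the 13 precursors with both arms listed and at least 10 counts in sum, 7 had at least 90% of them in 1 arm. Among these was miR-127, with 13955 counts of the 3p arm and 5 of the 5p arm. The 5p arm led for miR-411, with 425 counts against 8, and for miR-134, with 77 against 1. miR-434 had 270 counts of the 3p arm against 27, and miR-136 had 158 against 16. The others were more even, such as miR-409a, with 40 counts of the 5p arm and 20 of the 3p arm, and miR-379, with 11 and 7. Over the 13 the 3p arm led in 5 and the 5p arm in 8.

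Only miR-127-3p, miR-541-5p, miR-411-5p, miR-434-3p and miR-136-3p passed the filter on low counts over the 18 lung libraries, which is 7.46% of the members, against 60.6% of the other known rat miRNAs. The other 62 members were not tested in lung. The tests below come from edgeR's quasi-likelihood test over all 499 features that passed, with Benjamini-Hochberg adjustment over them and a threshold of 0.05.

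miR-127-3p, of the group antisense to Rtl1, was lower in irradiated lung at weeks 3 and 4 than at weeks 1 and 2. In the controls it stood at 550, 561 and 645 CPM at 1 week, and at 577, 991 and 780 CPM at 4 weeks. After 15 Gy it stood at 889, 871 and 872 CPM at 1 week and at 677, 547 and 777 CPM at 2 weeks. It then stood at 391, 466 and 279 CPM at 3 weeks and at 325, 311 and 155 CPM at 4 weeks. All 6 irradiated libraries of the later weeks lay below all 6 of the earlier weeks, as they did for 1% of all features. They also lay below all 6 control libraries, for which no share over all features was computed. The separation from the controls did not hold on library totals. There, 0 Gy 4 weeks replicate 3 had 607 counts in 1682183, and 15 Gy 3 weeks replicate 2 had 771 in 1567653. The separation of later from earlier irradiated libraries did hold on totals, where the lowest earlier library, 15 Gy 2 weeks replicate 2, had 436 in 729051.

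The values of the 2 very shallow libraries are imprecise. The 645 CPM of 0 Gy 1 week replicate 3 came from 12 counts, with an exact binomial 95% interval of 334 to 1127 CPM. The 279 CPM of 15 Gy 3 weeks replicate 3 came from 2 counts, with an interval of 33.8 to 1009 CPM. The lowest value, 155 CPM in 15 Gy 4 weeks replicate 3, came from 39 counts, with an interval of 110 to 211 CPM, which lay below the values of the other 2 libraries of its group. These intervals cover counting error only.

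**Figure D2:**
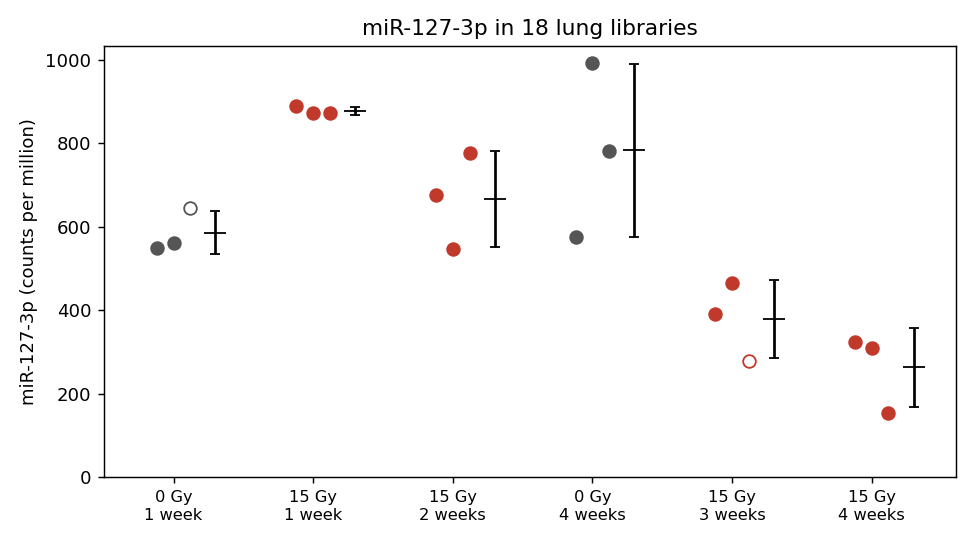
miR-127-3p in CPM (y axis) in each of the 18 lung libraries by group (x axis), controls in grey and 15 Gy in red, open circles for the 2 very shallow libraries, with group mean and SD in black. The 6 libraries of weeks 3 and 4 after 15 Gy sit between 155 and 466 CPM, and the 6 of weeks 1 and 2 between 547 and 889 CPM.

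As group means, miR-127-3p was 772 ± 137 CPM (SD, n = 6) at weeks 1 and 2 after 15 Gy and 321 ± 105 CPM (SD, n = 6) at weeks 3 and 4. The fitted log2 fold change between them was -1.25 (SE 0.24), with an edgeR adjusted p of 0.0252. It was the only known rat miRNA called in this comparison, where 2 of 499 features were called (0.401%). With edgeR the call was lost when any of 16 of the 18 lung libraries was left out, controls included, with adjusted p values of up to 0.287. It held without 0 Gy 4 weeks replicate 2 and without 15 Gy 4 weeks replicate 1. The fold change itself stayed between -1.34 and -1.03 in those fits, and it was -1.09 with an adjusted p of 0.0907 without the 2 very shallow libraries.

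Time and irradiation can be separated only in part, since the controls were taken at 2 of the 4 weeks. In 0 Gy lung, miR-127-3p at 4 weeks against 1 week gave a log2 fold change of 0.42 (SE 0.33, edgeR adjusted p = 0.684), a comparison in which 0 of 499 features were called (0%). The change against the matched controls at weeks 3 and 4 minus that at weeks 1 and 2 was -1.67 (SE 0.41). Its unadjusted p was 0.000958 and its adjusted p 0.239 in edgeR, so it did not pass, and none of 499 features did (0%). This contrast was added after the values had been seen.

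Against its own controls, miR-127-3p moved from above to below 0 over the weeks, and no single week passed the test. The log2 fold change was 0.59 (SE 0.33) at 1 week, with an edgeR adjusted p of 0.518, where 0 of 499 features were called (0%). At 2 weeks it was 0.19 (SE 0.33, edgeR adjusted p = 1), again with 0 of 499 called (0%). At 3 weeks it was -1.0 (SE 0.34, edgeR adjusted p = 0.574), with 0 of 499 called (0%). At 4 weeks it was -1.57 (SE 0.33), with an unadjusted p of 0.000304 and an edgeR adjusted p of 0.0759, and 0 of 499 features were called (0%). The mean level at 4 weeks was 263 ± 94.4 CPM (SD, n = 3), or 33.6% of the control mean of 783 ± 207 CPM (SD, n = 3).

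The 4-week difference passed the threshold in 2 of 10 alternative fits. DESeq2 gave -1.52 with an adjusted p of 0.00231, and called 0.802% of the 499 features as lower in that comparison. An edgeR fit of known rat miRNAs alone gave -1.64 with an adjusted p of 0.0248, and called 0.413% of its 242 features as lower. With 3 libraries against 3, an exact two-sided permutation test cannot go below p = 0.1, which is the value that it gave. Over the 10 alternative fits the adjusted p ran from 0.00231 to 0.585, with log2 fold changes of -1.64 to -1.27. Leaving out 1 library at a time never brought it past the threshold in edgeR, with adjusted p values of 0.0917 to 0.775 and log2 fold changes of -1.75 to -1.12, the last without 15 Gy 4 weeks replicate 3. Over all irradiated against all control libraries, which averages the early and late weeks, the log2 fold change was -0.45 (SE 0.20, unadjusted p = 0.0401, edgeR adjusted p = 0.490). In that comparison 0 of 499 features were called (0%).

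The other tested members were counted with at most 98 reads in any library, and none passed the test in any lung comparison. Their values are given in full because the question of a shared change rests on them.

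miR-411-5p, at the start of the miR-379/miR-410 group, was at 21.2, 18.8 and 0 CPM in the controls of week 1, and in those of week 4 at 18.8, 21.0 and 29.6 CPM. After 15 Gy it was at 33.7, 9.82 and 18.7 CPM at 1 week and 19.9, 7.52 and 33.0 CPM at 2 weeks. It was at 11.1, 26.6 and 0 CPM at 3 weeks and 12.8, 2.38 and 3.97 CPM at 4 weeks. All 3 libraries at 4 weeks lay below the 3 of their control, but 2 of them rested on 2 counts and 1 count. The log2 fold change at 4 weeks was -1.66 (SE 0.67, unadjusted p = 0.0263, edgeR adjusted p = 0.453).

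miR-434-3p, next to miR-127 in the Rtl1 antisense group, was at 13.6, 22.2 and 0 CPM in the controls of week 1, and in those of week 4 at 11.6, 18.7 and 10.3 CPM. After 15 Gy it was at 9.14, 7.36 and 10.9 CPM at 1 week and 15.0, 16.3 and 4.71 CPM at 2 weeks. It was at 18.5, 4.83 and 0 CPM at 3 weeks and 5.71, 9.53 and 0 CPM at 4 weeks. The 4-week groups did not overlap, although the nearest libraries differed only by 9.53 against 10.3 CPM. The 10.3 CPM came from 8 counts in 0 Gy 4 weeks replicate 3, whose scaling factor of 0.463 raised it. The library at 9.53 CPM, 15 Gy 4 weeks replicate 2, also had 8 counts, in 883126 against 1682183. On library totals the groups thus overlapped. The log2 fold change at 4 weeks was -1.19 (SE 0.65, edgeR adjusted p = 0.470).

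miR-136-3p, the neighbour of miR-434, was at 4.35, 6.85 and 0 CPM in the controls of week 1, and in those of week 4 at 10.9, 3.65 and 7.71 CPM. After 15 Gy it was at 4.22, 2.45 and 12.5 CPM at 1 week and 8.10, 7.52 and 4.71 CPM at 2 weeks. It was at 10.2, 7.25 and 0 CPM at 3 weeks and 3.33, 2.38 and 3.97 CPM at 4 weeks. The 4-week groups overlapped, by 3.97 against 3.65 CPM. The log2 fold change at 4 weeks was -1.24 (SE 0.58, edgeR adjusted p = 0.453).

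miR-541-5p, towards the Dio3 end, was at 15.2, 12.0 and 108 CPM in the controls of week 1, and in those of week 4 at 24.2, 26.9 and 10.3 CPM. The 108 CPM rested on 2 counts in a very shallow library. After 15 Gy it was at 35.1, 22.1 and 13.5 CPM at 1 week and 17.5, 5.02 and 18.8 CPM at 2 weeks. It was at 24.9, 16.9 and 0 CPM at 3 weeks and 17.6, 13.1 and 11.9 CPM at 4 weeks. Irradiated and control libraries overlapped at every week, and the log2 fold change at 4 weeks was -0.51 (SE 0.64, edgeR adjusted p = 0.848).

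**Figure D3:**
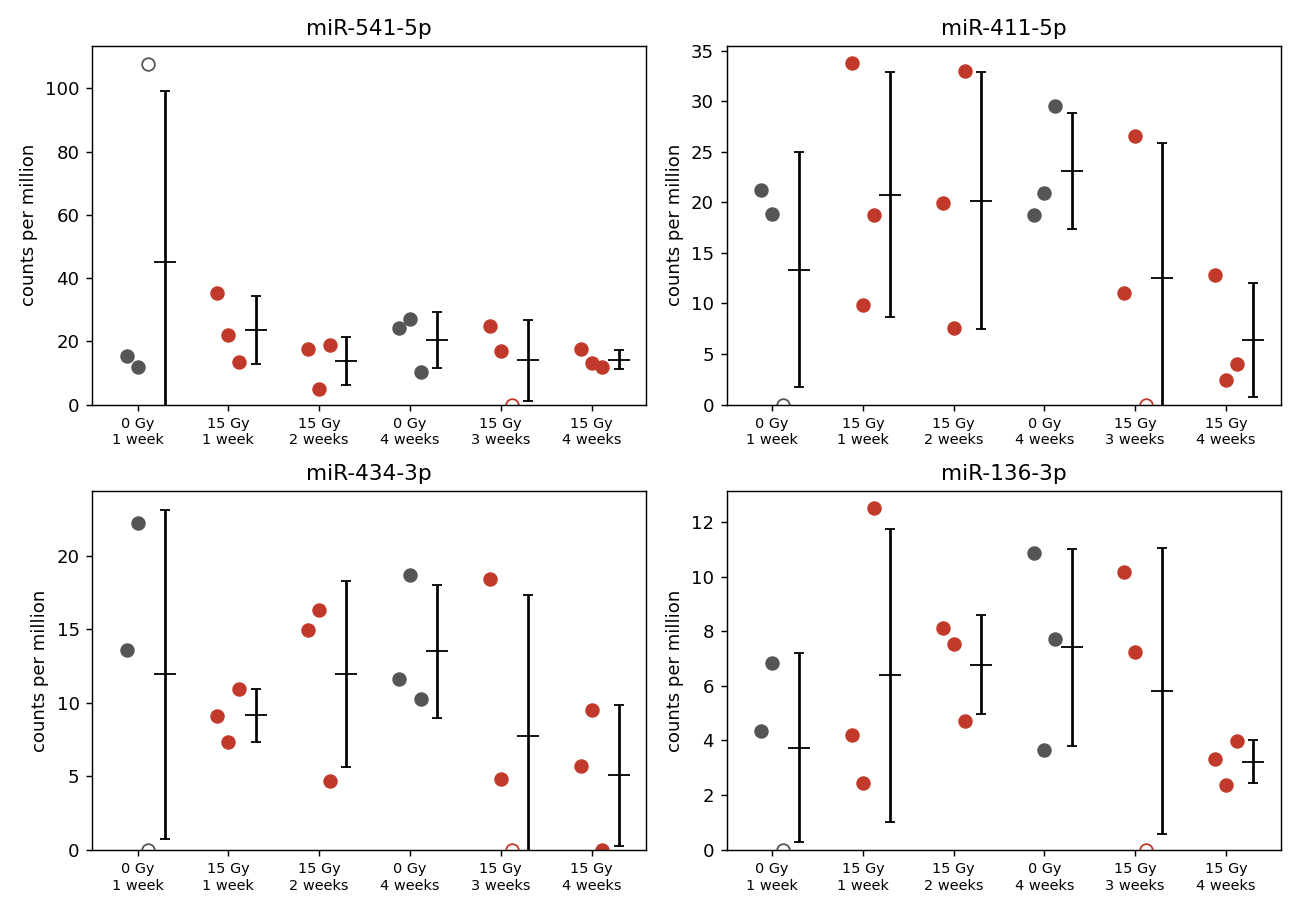
The 4 other tested members in CPM (y axis, a separate scale in each panel) in each of the 18 lung libraries by group (x axis), controls in grey and 15 Gy in red, open circles for the 2 very shallow libraries, with group mean and SD in black and bars cut at 0. miR-411-5p at 4 weeks sits at 2.38 to 12.8 CPM, below its control at 18.8 to 29.6 CPM, while miR-541-5p overlaps its control.

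Set side by side, all 5 tested members had a log2 fold change below 0 at 4 weeks, with a median of -1.24. Over all 499 features the median was -0.18 and 60.1% lay below 0. Unadjusted p was under 0.05 for 2 of the 5, miR-127-3p and miR-411-5p, against 5.61% of all features on the lower side. For miR-127-3p, miR-411-5p and miR-434-3p the 3 irradiated libraries lay below the 3 controls, as they did for 7.01% of all features. For miR-434-3p this held with the TMM scaling and not on library totals. At 3 weeks, with the same controls, 4 of the 5 were below 0 and their median was -0.28, beside -0.10 over all features.

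The early weeks showed no common direction. At 1 week 1 of the 5 was below 0, miR-434-3p at -0.84 (SE 0.66), and the median was 0.22, beside 0.15 over all features. At 2 weeks 2 of the 5 were below 0 and the median was 0.01, beside 0.10 over all features. In the comparison of weeks 3 and 4 with weeks 1 and 2 all 5 were below 0, as were 55.7% of all features, with a median of -0.45 against -0.06. Apart from miR-127-3p they ranged from -0.80 (SE 0.49) for miR-411-5p to -0.05 (SE 0.48) for miR-541-5p, a value whose sign changed with the scaling of the libraries. miR-127-3p was the only 1 of the 5 with an unadjusted p under 0.05, on a side where 8.02% of features had one, and the only 1 whose 6 later libraries lay below the 6 earlier, as 1% of features did. DESeq2 also called miR-127-3p here, with 0.401% of features called as lower.

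**Figure D4:**
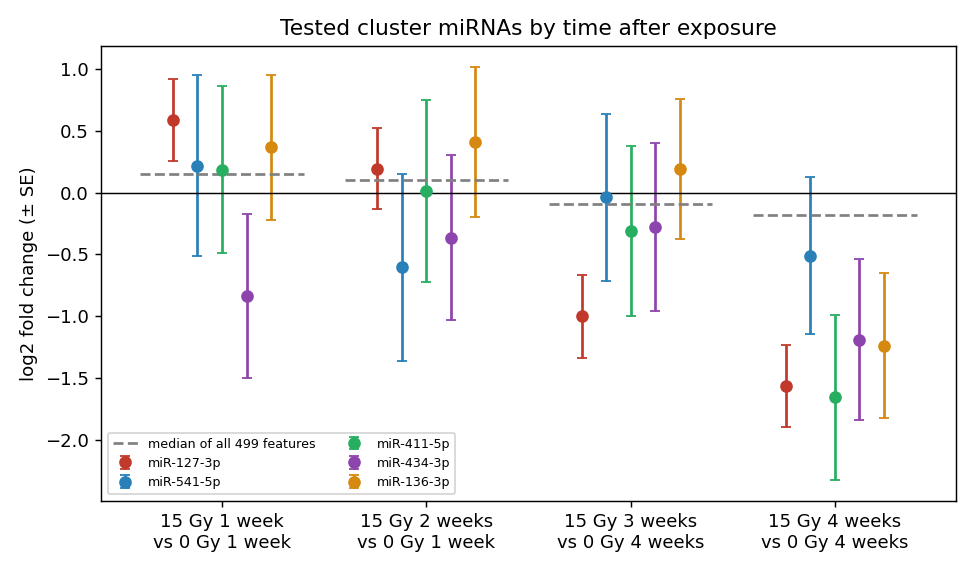
Log2 fold change with its SE (y axis) of the 5 tested members at each week after 15 Gy against the matched 0 Gy group (x axis), and the median over all 499 features as a dashed line. All 5 lie below the dashed line at 4 weeks, from -1.66 to -0.51, and on both sides of 0 at 1 and 2 weeks.

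The members other than miR-127-3p can be summed to raise their counts. The other 66 together stood at 96.0, 116 and 112 CPM in the week 4 controls, and at 55.7, 44.1 and 39.7 CPM at 4 weeks after 15 Gy. These groups did not overlap, as was so on the lower side for 7.01% of all single features. The 112 CPM came from 87 counts in replicate 3, whose scaling factor of 0.463 raised it. The irradiated mean was 43.1% of the control mean, and the 3 irradiated libraries rested on 117, 37 and 10 counts. The 0 Gy libraries at 1 week stood at 87.1, 88.1 and 108 CPM. Irradiated libraries stood at 121, 73.6 and 81.2 CPM at 1 week and at 91.6, 61.4 and 84.8 CPM at 2 weeks. At 3 weeks they stood at 87.7, 80.3 and 0 CPM, the 0 coming from the library with 8132 counts, where a count of 0 still allows 419 CPM. Without that library the 3-week values lay within the range of weeks 1 and 2, unlike those of miR-127-3p.

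The 62 untested members alone gave a like picture at 4 weeks, with 16.2, 16.7 and 19.8 CPM after 15 Gy and 30.6, 45.6 and 54.0 CPM at 0 Gy. The 54.0 CPM was again that of replicate 3, raised by its scaling factor. Irradiated libraries of weeks 1 and 2 lay between 23.6 and 38.7 CPM. Set against miR-127-3p, the counts of the other 66 members varied among the 16 libraries of ordinary depth, from 0.085 of its count in 15 Gy 1 week replicate 2 to 0.26 in 15 Gy 4 weeks replicate 3. In the 3-week libraries that ratio was 0.22 and 0.17, and in the 5 deeper control libraries it lay between 0.12 and 0.17. No test was run on these sums.

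**Figure D5:**
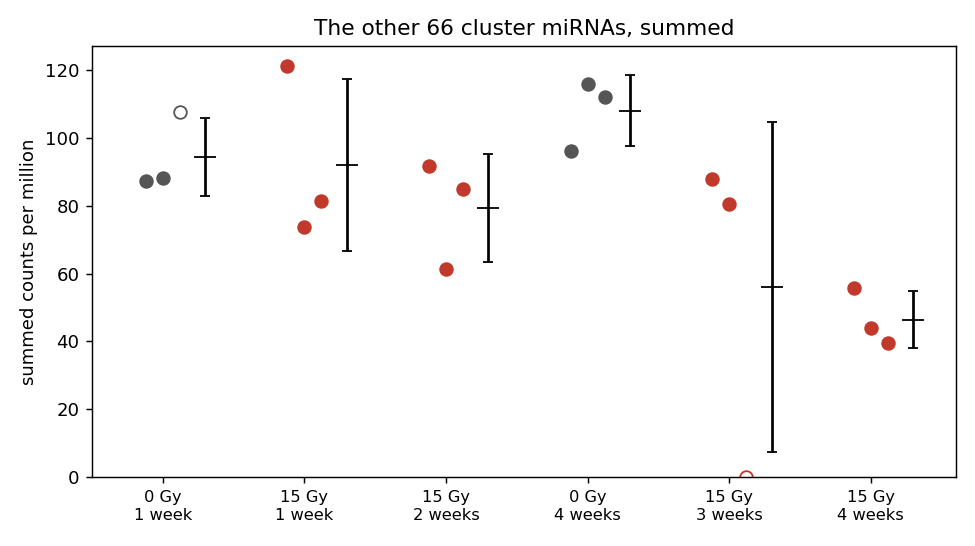
Summed CPM of the 66 members other than miR-127-3p (y axis) in each of the 18 lung libraries by group (x axis), controls in grey and 15 Gy in red, open circles for the 2 very shallow libraries, with group mean and SD in black. The 4-week libraries after 15 Gy sit at 39.7 to 55.7 CPM, below the 96.0 to 116 CPM of the 4-week controls.

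Across libraries, the members followed miR-127-3p to different degrees. Over the 16 lung libraries of ordinary depth the correlation of log2 CPM with miR-127-3p was 0.70 for miR-411-5p, 0.60 for miR-434-3p, 0.29 for miR-541-5p and 0.19 for miR-136-3p. The median over the 237 other known rat miRNAs tested was 0.02. The sum of the other 66 members correlated with miR-127-3p at 0.82 over these libraries and at 0.53 over all 18. All of these share the libraries, their scaling and their groups, and are a description.

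The 5 known rat miRNAs outside the cluster whose levels over the 18 lung libraries were most like those of miR-127-3p were miR-504 (r = 0.70), miR-378a-3p (0.66), miR-328a-3p (0.65), miR-351-5p (0.62) and miR-423-3p (0.60). By the same measure miR-411-5p stood at place 18 among all tested known rat miRNAs, miR-434-3p at 20, miR-541-5p at 41 and miR-136-3p at 85. These places depended on the 2 very shallow libraries. Without them miR-504, with 89 counts in all, was still the closest at 0.82, but places 2 to 5 went to miR-361-3p (0.79), miR-339-5p (0.78), miR-133a-3p (0.77) and miR-3582 (0.77). miR-411-5p then stood at place 9, ahead of miR-328a-3p, miR-351-5p, miR-378a-3p and miR-423-3p at places 10, 11, 12 and 14. miR-434-3p stood at place 22, miR-541-5p at 78 and miR-136-3p at 87.

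The table also listed predicted miRNA loci by position in rat build rn4, and 23 of them lay on chromosome 6 between 134141327 and 134424751. Of these 14 had lung counts and 5 were tested. The locus chr6:134184293-134184425 had 11220 lung counts and was the second of the 2 features called between weeks 3 and 4 and weeks 1 and 2, at a log2 fold change of -1.22 (SE 0.23, edgeR adjusted p = 0.0252). Its count was 0.80 of that of miR-127-3p in the median library, with a range of 0.74 to 1 over 18 libraries. A second locus, chr6:134186946-134187088, had 157 counts beside 158 of miR-136-3p, with a median ratio of 1. Another, chr6:134423713-134423859, had 386 counts, a median of 0.90 of those of miR-541-5p. The members beside which these loci are set are those with the most similar counts over the lung libraries, so the loci are not counted as independent of them, and whether the rows hold the same reads was not tested. A further tested locus, chr6:134184322-134184403, lay within the first and had 4535 counts in only 5 of the 18 libraries, so no fold change is given for it.

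The locus chr6:134389310-134389457 was less tightly tied to a member. It had 1022 counts, with a median of 2.43 times those of miR-411-5p over the 16 libraries where both were counted, and a range of 1 to 8. Its log2 fold change at 4 weeks was -1.73 (SE 0.60, unadjusted p = 0.0113, edgeR adjusted p = 0.453). Known rat miRNAs of the same stretch that the name rule left out had 9 rows. The most counted was miR-3543 with 310 counts, annotated on the strand opposite to the members, followed by miR-1193-3p with 23 and miR-3578 with 18.

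Whole lung holds many cell types, and fewer cells of a type cannot be told apart from less RNA per cell. At 4 weeks the summed list of mesenchyme miRNAs stood at 912 to 1013 CPM after 15 Gy and 785 to 1194 CPM at 0 Gy. Endothelial miR-126a stood at 10418 to 18144 CPM against 8034 to 27791, the epithelial list at 10319 to 13197 against 10906 to 29156, and the smooth muscle list at 67840 to 118281 against 87100 to 387320. The leukocyte list stood at 801 to 1588 CPM against 1080 to 1662. Each of these ranges overlapped its control.

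Other lists overlapped their controls in part. The heart and skeletal muscle list was at 21.4 to 53.6 CPM after 15 Gy and 43.7 to 57.9 CPM at 0 Gy. The red cell list was summed over miR-451-5p, miR-144-3p and miR-144-5p only. It left out miR-486-5p, which held 2.03% of all lung counts, so the sums miss most red cell miRNA counts. The list was at 106 to 155 CPM against 58.8 to 120. All 3 of its tested members had a log2 fold change above 0, but none is given for miR-486-5p. Also above 0 at 4 weeks were 3 of 4 leukocyte members and the 1 tested neuron miRNA. Below 0 were 3 of 4 smooth muscle, 2 of 3 mesenchyme and 2 of 2 endothelial members. The 1 tested heart and skeletal muscle miRNA was below 0 as well, and the epithelial list had 6 of 12 on each side. Neuron miRNAs were at 3.97 to 10.7 CPM against 5.01 to 7.71, near the level of a few counts. No miRNA of any of the 8 lists passed the edgeR test at 4 weeks.

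The same lists were set side by side for weeks 3 and 4 against weeks 1 and 2 after 15 Gy, the comparison in which miR-127-3p was called. All 3 tested red cell members had a log2 fold change above 0, with a median of 0.71, and the list ran from 53.4 to 146 CPM in the earlier weeks and from 99.7 to 155 CPM in the later weeks without the library of 8132 counts, which had 1397 CPM. The leukocyte list had 2 of 4 members above 0 and a median of 0.51, at 822 to 1877 CPM and then 801 to 1588 CPM without that library. The 1 tested heart and skeletal muscle miRNA had -0.43, and that list ran from 42.6 to 84.8 CPM and then from 21.4 to 53.6 CPM, again without that library. The medians of the smooth muscle, mesenchyme, endothelium and epithelium lists were -0.16, -0.21, -0.12 and 0.05. The 1 tested neuron miRNA had 1.04, at 2.45 to 9.42 CPM for the list and then 3.69 to 10.9 CPM without that library. No miRNA of the 8 lists passed the edgeR test here either. The part of these cell types in the values of the cluster was not tested.

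In blood the cluster was close to absent from the counts. Over 18 libraries and 34242343 counts the 67 members had 29 counts, of which 22 were miR-127-3p. miR-541-5p, miR-434-3p, miR-136-3p, miR-134-5p, miR-381-3p, miR-410-3p and miR-341 had 1 count each, and the other 59 had none. A member with a count was found for 11.9% of the cluster, against 79.8% of the other known rat miRNAs. None passed the filter on low counts in blood, so no blood comparison was tested.

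The few miR-127-3p counts of blood lay in 12 of 18 libraries, at no more than 2.28 CPM of the library total. Control libraries had 2 counts at 1 week and 0 at 4 weeks. Irradiated libraries had 5 counts at 1 week, 7 at 2 weeks, 4 at 3 weeks and 4 at 4 weeks, with 0 to 4 counts in a library. In sum this was 20 counts in 12 irradiated libraries of 21731744 counts and 2 in 6 control libraries of 12510599 counts. No test was run on these counts.

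Between the tissues at 0 Gy, miR-127-3p was at 679 CPM of the pooled lung counts and at 0.160 CPM of the pooled blood counts, or 6797 against 2 counts. That ratio was 4250, with an exact 95% counting interval of 1176 to 35102. Because miR-486-5p fills most of each blood library, the ratio was 366 (interval 101 to 3019) when its counts were left out of the totals. For members without a count in 0 Gy blood, taking 3 counts over the group as the floor, the level in lung was at least 87.1-fold higher for miR-541-5p, at least 85.9-fold for miR-411-5p and at least 61.3-fold for miR-434-3p. Leaving out miR-486-5p lowered these bounds to at least 7.49-fold, 7.39-fold and 5.27-fold. miR-136-3p, with 74 counts in lung and 1 in blood, had a ratio of 92.5 (interval 16.1 to 3704), or 7.96 (interval 1.38 to 319) without miR-486-5p.

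These ratios depend on a few blood counts and on which library held them. The blood libraries 0 Gy 1 week replicate 1 and 15 Gy 1 week replicate 2 stand under each other's number in a table of the study, and the sample labels were followed here. Were they exchanged, 0 Gy blood would hold 3 miR-127-3p counts and irradiated blood 19, and the ratio of lung to blood would be 2855 (interval 977 to 13850), or 222 (interval 75.9 to 1076) without miR-486-5p. miR-541-5p and miR-434-3p would then have 1 count each in 0 Gy blood, with ratios of 263 (interval 46.8 to 10453) and 185 (interval 32.7 to 7367). miR-136-3p would have none, at least 31.1-fold higher in lung, and miR-411-5p would be at least 86.5-fold higher.

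In the joint edgeR fit of both tissues 7 members passed the filter, the 5 above with miR-409b and miR-134-5p, and all 7 were called higher in lung. The fit called 286 of 576 features higher in lung (49.7%), and these 7 passed the filter only through their lung counts, so that their count says little. DESeq2 called 4 of the 7, and 37.7% of all 576 features, as higher in lung. The edgeR fit without miR-486-5p tested 1 member and called it, with 41.8% of its 455 features called higher in lung.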

How the data were processed

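Small RNA of lung and whole blood was sequenced by the study from size-selected libraries, 18 per tissue. The authors trimmed the reads with Trim Galore 0.2.5 and mapped them with Bowtie 1.1.1, with rat build rn4 and miRBase as references. By the paper, reads without a match in miRBase were first filtered against mRNA, other noncoding RNA and repeats. From those left, miRanalyzer predicted new miRNAs. The authors deposited 1 table of raw counts per miRNA and library, with rows for 458 known rat miRNAs, 116 homologs and 373 predicted loci. How reads matching several rows were shared was not given in the sources used here. No column was left unused, and no 2 libraries were identical.

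Groups came from the sample labels. Whether the 3 libraries of a group came from separate pools of rats rests on the study's text. The p-values measure the spread between libraries. The 67 members and the lists of locus groups and cell types were chosen with earlier results of these data known. The genes given in full were those that passed the filter, then those with at least 10 lung counts, the predicted loci of the same stretch and the 5 miRNAs most like miR-127-3p by correlation.

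Counts were tested with edgeR 4.0.16 in R 4.3.3, which differs from the tool of the study: filterByExpr by group, TMM scaling, glmQLFit and glmQLFTest over the 18 lung libraries, or over all 36 for lung against blood. Adjustment was by Benjamini-Hochberg over all features tested, at 0.05. CPM used the TMM-scaled library totals, correlations log2(CPM + 1). DESeq2 1.42.0, other scalings, no filter, known miRNAs only, other controls, the replicate number as a block and the omission of libraries were alternatives. The same edgeR steps were first run on simulated counts with large planted changes, which says little of smaller changes or of rarely counted members. Intervals are exact, at 95%, and cover counting error only, since reads were amplified without molecular identifiers. Levels at 0 were bounded by 3 counts. Depth per library is given with the results.

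Same-numbered lung libraries of different groups had a median correlation of deviations of 0.053 (range -0.20 to 0.38, 20 of 45 pairs over 0.1). For other-numbered lung libraries it was -0.032 (range -0.44 to 0.28, 16 of 90 pairs over 0.1). For lung and blood libraries of the same group and number it was -0.019 (range -0.13 to 0.10, 1 of 18 pairs over 0.1). The sample labels give the numbers only, so whether they pair samples, within lung or between lung and blood, was not settled. The main fits did not use them as pairs.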

Additional observations from a re-analysis of the deposited data

How the results depend on the processing

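The fold change of miR-127-3p between weeks 3 and 4 and weeks 1 and 2 stayed between -1.29 and -1.04 under 9 alternatives, but the number of members called fell from 1 to 0 under 6 of them: no filter (-1.16, adjusted p = 0.331 in edgeR), library totals as scaling (-1.29, 0.163), the replicate number as a block (-1.28, 0.0609), omission of the 2 very shallow libraries (-1.09, 0.0907), omission of these and 15 Gy 4 weeks replicate 3 (-1.04, 0.0539), and a fit of only the groups compared (-1.26, 0.0771). Whether the replicate numbers pair the samples was not settled, so the block result is given as 1 alternative fit, and the causes were not tested. Leaving out 1 library at a time gave 0 to 1 members called. At 4 weeks the count was 0 in the main analysis, and 1 with DESeq2 and with known rat miRNAs only. For lung against blood it was 7, and 13 without a filter, 4 with DESeq2, 3 with known rat miRNAs only, 1 without miR-486-5p and 5 to 8 without 1 library. Exchanging the 2 blood libraries whose numbers differ in a table of the study, an alternative chosen after seeing the data, left that count at 7 but moved fitted log2 fold changes, for miR-434-3p from 6.58 to 4.98, for miR-541-5p from 7.02 to 5.43 and for miR-136-3p from 3.89 to 5.35.

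Values near 0 that never passed the test changed sign. Against 0 Gy at 1 week, miR-127-3p at 2 weeks was -0.033 without a filter, -0.0049 with RLE size factors, -0.28 with library totals and -0.019 against both control groups. miR-411-5p at 2 weeks was -0.16 without a filter, -0.16 with RLE, -0.34 with totals, -0.12 with DESeq2, -0.17 with known miRNAs only, -0.13 with the block, -0.23 and -0.10 without the shallow libraries and then also the third, -0.25 with only the groups compared and -0.13 against both control groups. At 1 week miR-411-5p was -0.10 and miR-541-5p -0.15 with totals, and miR-541-5p -0.042 with DESeq2. At 3 weeks miR-411-5p was 0.025 with totals, and miR-541-5p 0.062 with totals, 0.035 with DESeq2, and 0.010 and 0.020 without the shallow libraries. Between the control groups, totals gave -0.19 for miR-127-3p, -0.0086 for miR-136-3p, -0.28 for miR-411-5p and -0.40 for miR-541-5p, which was -0.044 with RLE and -0.21 with DESeq2. Between late and early weeks miR-541-5p was 0.028 without a filter, 0.011 with RLE, 0.048 with DESeq2, and 0.059 and 0.021 without the shallow libraries. Over all irradiated against all control libraries it was 0.065 and 0.091 without them.

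Leaving out 1 library at a time gave ranges that crossed 0 in the following cases. At 1 week they were -0.58 to 0.63 for miR-136-3p, -0.33 to 0.31 for miR-411-5p and -0.63 to 0.55 for miR-541-5p. At 2 weeks they were -0.033 to 0.21 for miR-127-3p, -0.041 to 0.62 for miR-136-3p and -0.45 to 0.28 for miR-411-5p. At 3 weeks they were -0.15 to 0.62 for miR-136-3p, -1.10 to 0.19 for miR-411-5p, -1.43 to 0.36 for miR-434-3p and -0.32 to 0.19 for miR-541-5p. Between the control groups they were -0.024 to 0.80 for miR-136-3p, -0.042 to 0.40 for miR-411-5p and -0.76 to 0.41 for miR-541-5p. Between late and early weeks they were -0.59 to 0.052 for miR-136-3p and -0.17 to 0.22 for miR-541-5p, and over all irradiated libraries -0.28 to 0.16 for miR-136-3p. At 4 weeks no tested member changed sign under any alternative or omission. Counts under about 100 in each library limit every member but miR-127-3p. Low counts limit miR-127-3p in some libraries too. It had 12 counts in 0 Gy 1 week replicate 3, 2 in 15 Gy 3 weeks replicate 3 and 39 in 15 Gy 4 weeks replicate 3.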
